A study of Homo sapiens with 4 samples.

Results

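The replication-dependent histone genes are the 73 symbols of the tables that begin with HIST1H, HIST2H, HIST3H or HIST4H, out of 23605 symbols in all. They were read from RNA sequencing of LCC9, a breast cancer cell line that resists tamoxifen and is labelled positive for estrogen receptor alpha in its wild-type form. The groups compared were A7 (2 libraries) and vehicle, which was DMSO (2 libraries), each for 24 h. A7 is known here by its code name only, and the labels describe it as a compound that mimics BRCA1 and give no dose. All cells, treated or not, were kept in phenol red-free medium with 5% charcoal-stripped serum, which is low in steroid hormones. The labels do not say whether the samples of a group were separate cultures, so the spread between them may be technical. By the letters of the symbol the members divide into 6 H1, 18 H2A, 20 H2B, 14 H3 and 15 H4 genes. The HIST1 genes (56) lie on chromosome 6, the HIST2 (13) and HIST3 (3) genes on chromosome 1 and HIST4H4 on chromosome 12.

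Histones H2A, H2B, H3 and H4 form the protein core that DNA wraps around in the nucleosome, and the linker histone H1 binds where the DNA enters and leaves it. A dividing cell has to package its newly copied DNA, and the replication-dependent genes supply the histones for this during S phase. Their mRNAs are the known exception among animal mRNAs: most have no introns and end in a conserved stem-loop, bound by the protein SLBP, in place of a poly(A) tail. Polyadenylated forms of some of these mRNAs are also known, for example from differentiated cells. The cDNA was made with a SMARTer PCR kit, per the labels' protocols, and that kit is commonly primed on poly(A), though the labels do not name the primer. How much of each histone mRNA such a library captures was not tested, so levels below are those of the captured RNA.

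The stem-loop is shown here because it sets these mRNAs apart from others and because its letters set H4 apart from H2A, H2B and H3. In GENCODE 29 (GRCh38), 30 members had an annotated transcript that reaches past its stop codon into a stem-loop, starting 22 to 67 bases after the stop codon (median 35.5). Among the 35 members with at least 70 annotated bases after the stop codon, 29 had it. Capitals mark the paired stem and small letters the loop, each read on the strand of its gene.
HIST2H2AA3 (chr1:149842223-149842238, minus strand): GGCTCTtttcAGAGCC
HIST1H2BC (chr6:26123472-26123487, minus strand): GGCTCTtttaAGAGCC
HIST1H4H (chr6:26285131-26285146, minus strand): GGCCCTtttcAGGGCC
HIST2H4A (chr1:149833032-149833047, plus strand): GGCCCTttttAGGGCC
The first form was found in 15 members of types H2A, H2B and H3, and the second in 5 of types H2B and H3. The last pair of forms, whose stems differ from the others in 1 base pair, were found in 5 and 3 members, every one of them an H4 gene. The other 2 of the 30 members had forms of their own.

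Levels are given as scaled FPKM, which is the authors' FPKM (fragments relative to transcript length and to the mapped fragments of the library) divided by 1 factor per library of 0.9899 and 1.02 for A7 and 1.002 and 1.014 for vehicle. The members together held 1.06% and 0.936% of the summed FPKM of the A7 libraries, against 1.01% and 0.833% of the vehicle libraries. An FPKM above 0.01 was listed for 47 and 49 members in the A7 libraries and for 48 and 55 in the vehicle libraries. Of the 73, 35 were above that level in all 4 libraries and 8 were listed at 0 in all 4. Vehicle replicate 2 stood slightly apart: 5 members were above 0.01 in that library alone, against 1 and 1 in the A7 libraries and 3 in vehicle replicate 1. The luminal markers (ESR1, GATA3, FOXA1, KRT8, KRT18, KRT19, EPCAM and TFF1) were all tested, and they summed to 36259 and 35780 scaled FPKM with A7 and 76814 and 80778 with vehicle; the part of this in the histone results was not tested. The 4 leukocyte markers were listed at 0 everywhere. The endothelial markers summed to at most 0.0961, and the basal and mesenchymal ones to 9.32 and 7.62 with A7 and 6.72 and 7.7 with vehicle. The fibroblast markers summed to 9.95 and 0.843 with A7 and 0.416 and 0.421 with vehicle.

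With every line in the sum, the level of each histone type overlapped between A7 and vehicle. For H2A, and for H4 without HIST1H4C, the overlap rests on a line that is entered under 2 symbols. The test of single genes below covered the 58 members with a mean FPKM of at least 1; the sums hold every member and have no test, since 2 libraries against 2 cannot give an exact permutation p below 0.333. Sums are given because histone copies share reads, and a sum depends less on how those reads were divided.

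Core histone H4 was by far the most abundant type. Its 15 genes summed to 11652 and 9983 scaled FPKM with A7, against 12225 and 11015 with vehicle, a ratio of 0.931. The values of both groups interleave, and the ratio is above 1 when FPKM are rescaled to TPM (log2 ratio -0.10 with the main scaling and 0.12 with TPM). TPM moves the median log2 difference of all tested genes to 0.174, so TPM ratios here and below are to be read beside that value. A single gene, HIST1H4C, carried 85.6% and 83.6% of the H4 sum with A7 and 85.1% and 85.1% with vehicle. Without it, H4 summed to 1683 and 1636 with A7 and 1820 and 1640 with vehicle. HIST2H4A and HIST2H4B have identical values in every library, and the overlap of this smaller sum rests on counting both. With that line counted once, the sum of all H4 genes still overlapped (11007 and 9374 with A7, 11508 and 10417 with vehicle).

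The H2A genes summed to 534 and 413 scaled FPKM with A7, against 580 and 490 with vehicle. The ratio was 0.885, with a log2 ratio of -0.18 that turns to 0.04 with TPM. HIST2H2AA3 and HIST2H2AA4 have identical values in every library, and with that line counted once, an alternative added after seeing the data, H2A summed to 353 and 268 with A7, against 404 and 378 with vehicle. These sums did not overlap, with a ratio of 0.794 and a log2 ratio of -0.33 (-0.12 with TPM, where the libraries overlap). The H2B genes, whose products pair with H2A, summed to 296 and 325 with A7, against 323 and 349 with vehicle. Their ratio was 0.924, with a log2 ratio of -0.11 that turns to 0.11 with TPM, where both A7 libraries were above both vehicle libraries. That 0.11 is below the median of 0.174 that all tested genes had with TPM.

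The H3 genes had the lowest sums of the 5 types, 94.0 and 71.1 scaled FPKM with A7 against 88.9 and 115 with vehicle. The ratio was 0.809, and its log2 value of -0.31 was -0.08 with TPM and -0.04 without HIST1H3B. The linker histone H1 genes summed to 144 and 162 with A7, against 153 and 140 with vehicle, a ratio of 1.05 (log2 ratio 0.06). The H1 log2 ratio was 0.28 with TPM and 0.39 without HIST1H1C, and under each of these the A7 libraries were both above the vehicle libraries. In whole cultures, the share of cells in S phase and the histone mRNA per cell cannot be told apart, whichever way a sum differs.

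By gene cluster, the HIST2 genes summed to 1736 and 1592 scaled FPKM with A7, against 1919 and 1516 with vehicle. This sum counts both lines of 3 pairs with identical values. The HIST1 genes other than HIST1H4C summed to 1003 and 981 with A7, against 1015 and 1214 with vehicle, where vehicle replicate 2 was the highest library. These sums did not overlap, but 1003 and 1015 lie close together. The 3 HIST3 genes reached 3.58 at most in any library. HIST4H4 had 12.3 and 30.8 with A7 and 32.1 and 3.29 with vehicle, so libraries of 1 group differed more than the groups did.

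**Figure D1:**
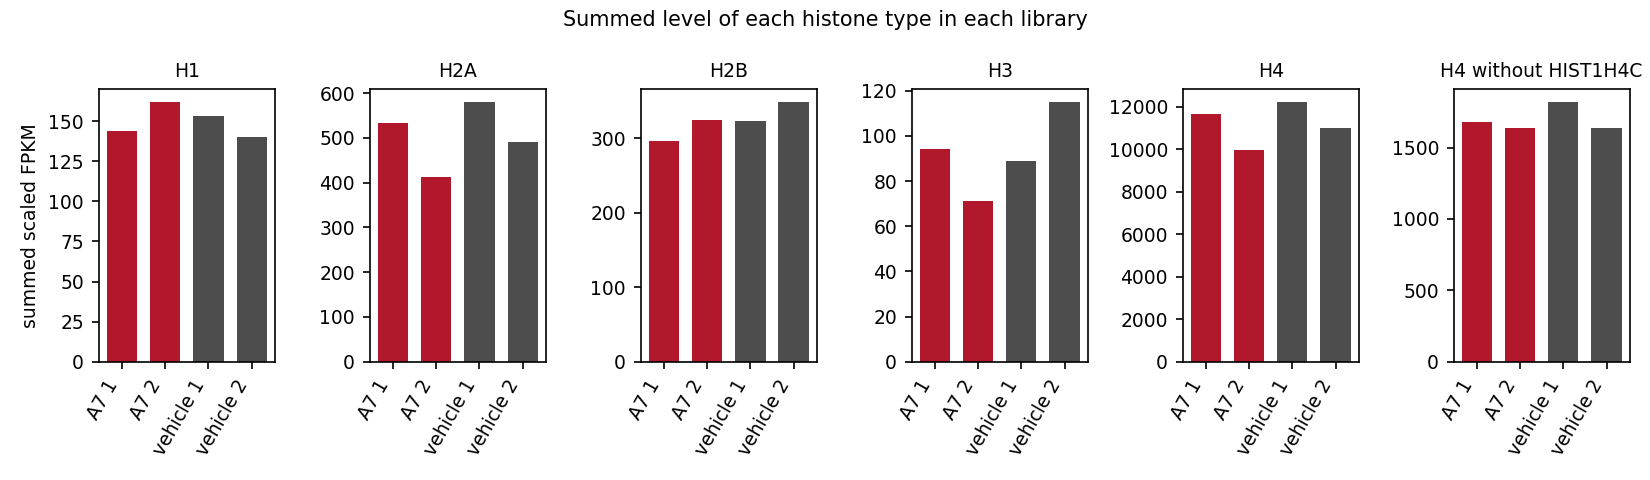
Summed scaled FPKM (vertical axis, from 0) of the genes of each histone type in each of the 4 libraries, A7 in red and vehicle in grey, with H4 also shown without HIST1H4C. Every panel has its own scale. H4 reached 11652 and 9983 with A7 and 12225 and 11015 with vehicle, and in every panel the bars of the groups overlap. Identical lines (H2A, H3 and H4) are all counted here, and the overlap for H2A and for H4 without HIST1H4C rests on this.

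Single genes spread more widely than the sums. By the log2 difference of the fit, 23 of the 58 tested members were higher with A7 and 35 were lower. The median log2 difference was -0.11 (quartiles -1.13 and 0.3). With TPM the members' median was 0.113, with 33 higher and 25 lower. With quantile normalization it was 0.002, with 30 higher and 28 lower. The sign of the median and the more frequent direction thus depend on the scaling. TPM moves the median of all genes to 0.174, and relative to that the members' median was -0.061. Over all 8952 tested genes 4447 were higher and 4505 lower, and the median was -0.002 and the quartiles were -0.16 and 0.17. By type the median was 0.21 for H1 (4 tested), -0.61 for H2A (15), -0.05 for H2B (17), -0.29 for H3 (10) and -0.09 for H4 (12). Among the 31 members with a mean FPKM of at least 10, a subset taken after the values were seen, 14 were higher and 17 lower, with a median of -0.026.

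At a Benjamini-Hochberg adjusted p under 0.05 over all tested genes (limma), 0 members were higher and 1 was lower with A7, HIST2H2BA. Over all tested genes 0.0223% were called, 0.0112% higher and 0.0112% lower, which is 1 gene in each direction. At an unadjusted limma p under 0.05, 2 of the 58 members were higher and 8 lower. Of the 8952 tested genes, 198 were higher and 318 lower by that rule, 5.76% in either direction. HIST2H2BA, HIST1H3I and HIST1H4I among the 8 and HIST1H3D among the 2 passed the filter on low values only through 1 group, as given below. The counts of 8 and 2, and the call of HIST2H2BA, therefore support nothing about the members as a set. The libraries of the groups did not overlap for 19 of the 58 members (8 higher and 11 lower), which is 32.8% against 36.9% of all tested genes. That share is near the background and is no result about the members. Of the members whose libraries did not overlap, 9 were at least 2-fold lower (15.5% of those tested, against 1.26% of all tested genes) and 2 at least 2-fold higher (3.45% against 1.24%). Of the 9, 5 passed the filter on low values only through their level with vehicle (HIST2H2BA, HIST1H3I, HIST1H4I, HIST2H3A and HIST2H3C), and both of the higher ones, HIST1H2BO and HIST1H3D, only through their level with A7. Such genes had to differ to be tested, and HIST2H3A and HIST2H3C are 1 line under 2 symbols, so the counts of 9 and 2 support nothing about the members. The other 4 were HIST1H2AI, HIST1H2AJ, HIST2H2BF and HIST1H4B. Of all 11, 3 had a mean FPKM of at least 10 (HIST1H2AI, HIST1H2AJ and HIST2H2BF), and all 3 were lower. They are 3 of 31 members at that level, whereas among the 3280 genes there 0.488% were lower by that rule and 0.122% higher. HIST1H2AI and HIST1H2AJ can share reads, and 10 FPKM stands for fewer fragments in a short histone gene than in a longer gene. The shares are not matched for depth, so they support nothing about the members.

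**Figure D2:**
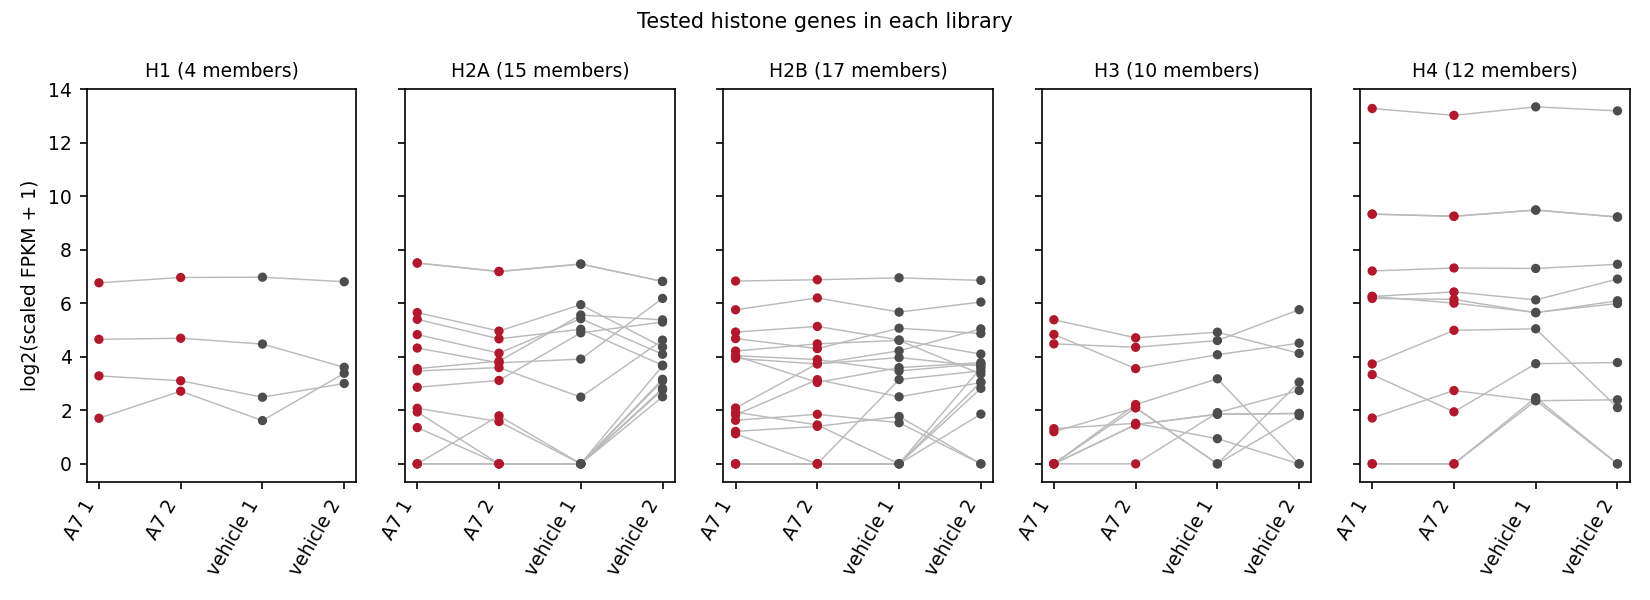
Level of each tested member in each library as log2(scaled FPKM + 1), by histone type, with A7 libraries in red and vehicle libraries in grey. Lines join the values of 1 gene. High genes such as HIST1H4C run nearly level, and genes near 0 jump between libraries of the same group.

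The depth behind these values differs from gene to gene. The steps between low FPKM values give what 1 fragment is worth, and so a rough number of fragments for 48 of the tested members. A7 libraries were deeper, at 1.86 and 1.43 times the depth of vehicle replicate 1, and vehicle replicate 2 was at 0.973 times. The estimate is rough, since 30.8% to 45.8% of the ratios between libraries fell within 2% of a simple fraction. In vehicle replicate 1, 1 fragment was worth 0.834 FPKM in an H1 gene and 4.19 FPKM in a shorter H4 gene. The H1 value shows no step of its own. It rests on 2 members, HIST1H1A and HIST1H1T, each above 0.01 in 1 library only, where the value was taken as 1 fragment. Over the 4 libraries together 22 members had at most 10 fragments, 20 had 11 to 100 and 6 had more than 100. The median size of the log2 difference was 1.14 in the first of these classes, 0.41 in the second and 0.12 in the third. In the third class the largest was 0.63, for HIST1H1D, whose estimate rests on the H1 value.

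**Figure D3:**
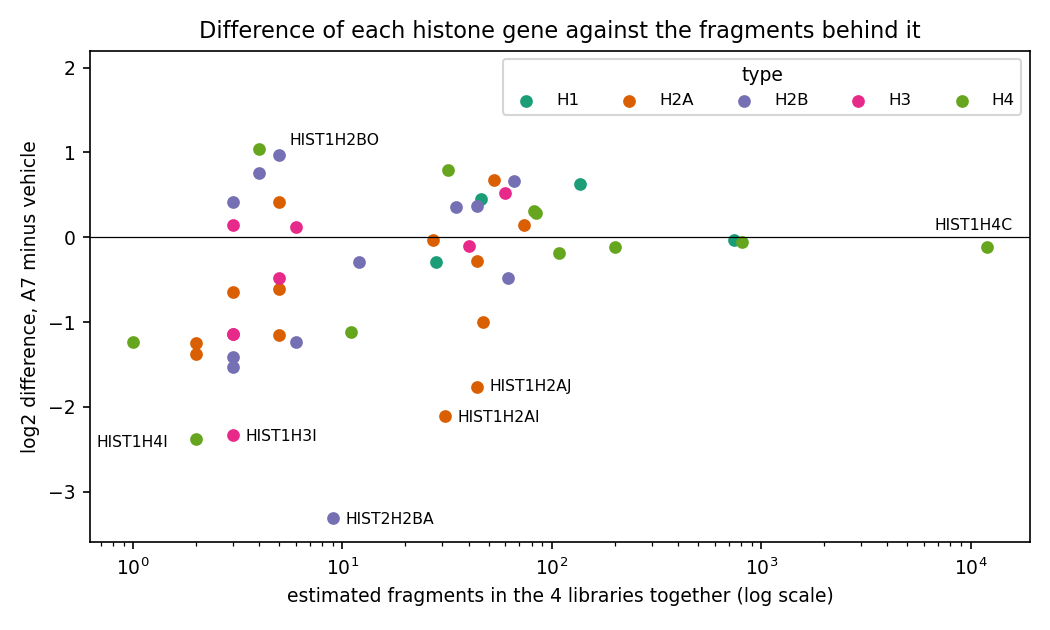
Log2 difference of each tested member, A7 minus vehicle (vertical axis), against the estimated fragments in the 4 libraries together (log axis), with the histone type as colour. Differences are widest on the left; HIST2H2BA, with 0 and 0 fragments with A7 and 4 and 5 with vehicle, lies lowest, and HIST1H4C lies close to 0 on the far right.

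The 11 members that were at least 2-fold apart with no overlap are given next by type, with H2A first. HIST1H2AI had 6.27 and 7.69 scaled FPKM with A7, against 28.8 and 38.4 with vehicle, and was 4.81-fold lower (log2 difference -2.11, SE 0.20, limma adjusted p 0.0713). HIST1H2AJ had 10.8 and 13.3 with A7, against 46.3 and 40.7 with vehicle, and was 3.61-fold lower (log2 difference -1.77, SE 0.17, limma adjusted p 0.0713). Both encode canonical H2A and lie near each other in the HIST1 cluster. Neither passed the threshold. With only genes of a mean FPKM of at least 5 tested, both were called (limma adjusted p 0.0152), and under the other settings the adjusted p of either was 0.0508 to 0.972. The log2 difference was negative under every setting run, from -2.31 to -1.87 for HIST1H2AI and from -1.97 to -1.54 for HIST1H2AJ. Each has few fragments behind it: HIST1H2AI an estimated 4 and 4 with A7 against 10 and 13 with vehicle, and HIST1H2AJ 7 and 7 against 16 and 14. Allowing for depth, the fragment ratio of A7 to vehicle had a 95% exact interval of 0.0805 to 0.482 for HIST1H2AI and 0.137 to 0.543 for HIST1H2AJ, counting error only. Both genes were named for their difference in these same values, so the intervals are no further support.

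The coding sequences of HIST1H2AI and HIST1H2AJ are 96.44% identical, so reads of one can be assigned to the other. Summed, they had 17.1 and 21.0 scaled FPKM with A7 and 75.1 and 79.1 with vehicle, a 4.05-fold lower sum. With copies summed by coding sequence before the test, the pair had a log2 difference of -1.97 (SE 0.16) and a limma adjusted p of 0.0508; with copies also joined by whole transcripts it was 0.0764. Another H2A gene of the cluster, HIST1H2AM, was not chosen by the rule for named genes but after its values were seen. It had 19.1 and 12.7 scaled FPKM with A7 and 14.1 and 71.7 with vehicle, and its groups overlap. The sum of the 3 genes was 36.1 and 33.7 with A7 and 89.2 and 151 with vehicle.

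The starts of the coding sequence are shown as an example of how far a short read from there can tell these genes apart. Over their whole coding sequences HIST1H2AI and HIST1H2AJ have 14 differences, so other stretches tell them apart better. Capitals mark the positions at which the 3 genes are not all the same, from GENCODE 29 on GRCh38. In these 90 bases HIST1H2AI and HIST1H2AJ differ at 1 position, and HIST1H2AM differs from them at 12 and 13.
HIST1H2AI (chr6:27808210-27808299, plus strand): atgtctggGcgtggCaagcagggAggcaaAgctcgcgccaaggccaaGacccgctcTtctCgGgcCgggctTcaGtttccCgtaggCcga
HIST1H2AJ (chr6:27814651-27814740, minus strand): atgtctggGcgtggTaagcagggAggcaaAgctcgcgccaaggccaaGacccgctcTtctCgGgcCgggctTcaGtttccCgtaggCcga
HIST1H2AM (chr6:27893060-27893149, minus strand): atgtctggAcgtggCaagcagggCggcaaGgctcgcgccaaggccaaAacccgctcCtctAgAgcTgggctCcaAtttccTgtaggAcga

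The promoters of the pair are shown as well. Whether they bear on the levels of these genes, which can share reads, was not tested. The 120 bases before each start, from RefSeq on GRCh38.p14, differ at 4 positions, and capitals mark the CCAAT box on either strand (CCAAT or ATTGG) and the TATA box (TATAAA).
HIST1H2AI (chr6:27808053-27808172, plus strand): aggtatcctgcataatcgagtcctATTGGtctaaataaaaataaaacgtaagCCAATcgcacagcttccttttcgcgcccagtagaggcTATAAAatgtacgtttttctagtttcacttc
HIST1H2AJ (chr6:27814778-27814897, minus strand): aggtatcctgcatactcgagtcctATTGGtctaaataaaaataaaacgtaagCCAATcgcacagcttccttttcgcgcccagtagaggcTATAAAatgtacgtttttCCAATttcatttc
Promoter sequence was at hand for 61 of the 73 members. Searched on both strands of the RefSeq window around the start, TATAAA was found in 40 of the 61 (12% of all 27305 promoters of the same length) and CCAAT in 51 (35.7%). CCAAT was in every H1, H2A, H2B and H3 promoter searched, but in 3 of 13 H4 promoters. The octamer ATTTGCAT, first described in H2B promoters, was in 14 of 18 H2B, 11 of 14 H2A, 1 of 10 H3, 0 of 6 H1 and 0 of 13 H4 promoters, against 1.8% of all promoters. A match describes letters in the window only.

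Among H2B genes, HIST2H2BA was listed at 0 and 0 with A7, against 7.89 and 10.1 scaled FPKM with vehicle (log2 difference -3.31, SE 0.21, limma adjusted p 0.0365). Since it is listed at 0 with A7, that difference depends on the pseudocount (-6.5 with 0.1). GENCODE annotates it as a pseudogene. The estimated fragments were 0 and 0 with A7 and 4 and 5 with vehicle, and the 95% exact interval of the ratio reached up to 0.303. That interval pools the libraries of a group and covers counting error only. HIST2H2BA passed the filter only through its vehicle level and is named for this difference, so the interval supports nothing further. The 752-base transcript of HIST2H2BA is 98.5% identical to a transcript of HIST2H2BF, with 11 differences. Reads of the genes can therefore be assigned to either. HIST2H2BF, a protein-coding H2B gene, had 3.25 and 12.4 scaled FPKM with A7 and 17.7 and 32.0 with vehicle (log2 difference -1.72, SE 0.56, limma adjusted p 0.806). Summed, they had 3.25 and 12.4 with A7, against 25.6 and 42.1 with vehicle. Copies grouped by coding sequence alone do not join the pair, and HIST2H2BA then kept its call. Grouping by whole transcripts, which was added after the values were seen, joins them, and the pair was not called (log2 difference -2.16, SE 0.54, limma adjusted p 0.788). The call of HIST2H2BA was also lost with a pseudocount of 0.1, with no filter, with the replicate number as a block, and when any 1 of the 4 libraries was left out.

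HIST1H2BO, another canonical H2B gene, had 2.09 and 2.61 scaled FPKM with A7, against 1.90 and 0 with vehicle (limma adjusted p 0.806). The estimated fragments were 2 and 2 with A7 and 1 and 0 with vehicle.

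Among H3 genes, HIST1H3I was listed at 0 and 0 with A7 and at 2.77 and 5.69 with vehicle (limma adjusted p 0.284), with an estimated 1 and 2 fragments with vehicle. HIST2H3A and HIST2H3C had the same values in every library, 0 and 1.76 with A7 and 2.62 and 2.69 with vehicle (limma adjusted p 0.806). HIST1H3D had 1.49 and 1.86 with A7, against 0.919 and a value near 0 with vehicle (limma adjusted p 0.806). All of these rest on very few fragments or have no estimate.

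Among H4 genes, HIST1H4I was listed at 0 and 0 with A7, against 4.13 and 4.26 with vehicle (limma adjusted p 0.0713), which is an estimated 1 and 1 fragments. The ratio of 0 to 2 fragments has a 95% exact interval up to 3.19, so the counts do not separate the groups. HIST1H4B had 9.09 and 2.85 with A7, against 12.4 and 12.8 with vehicle (limma adjusted p 0.806).

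**Figure D4:**
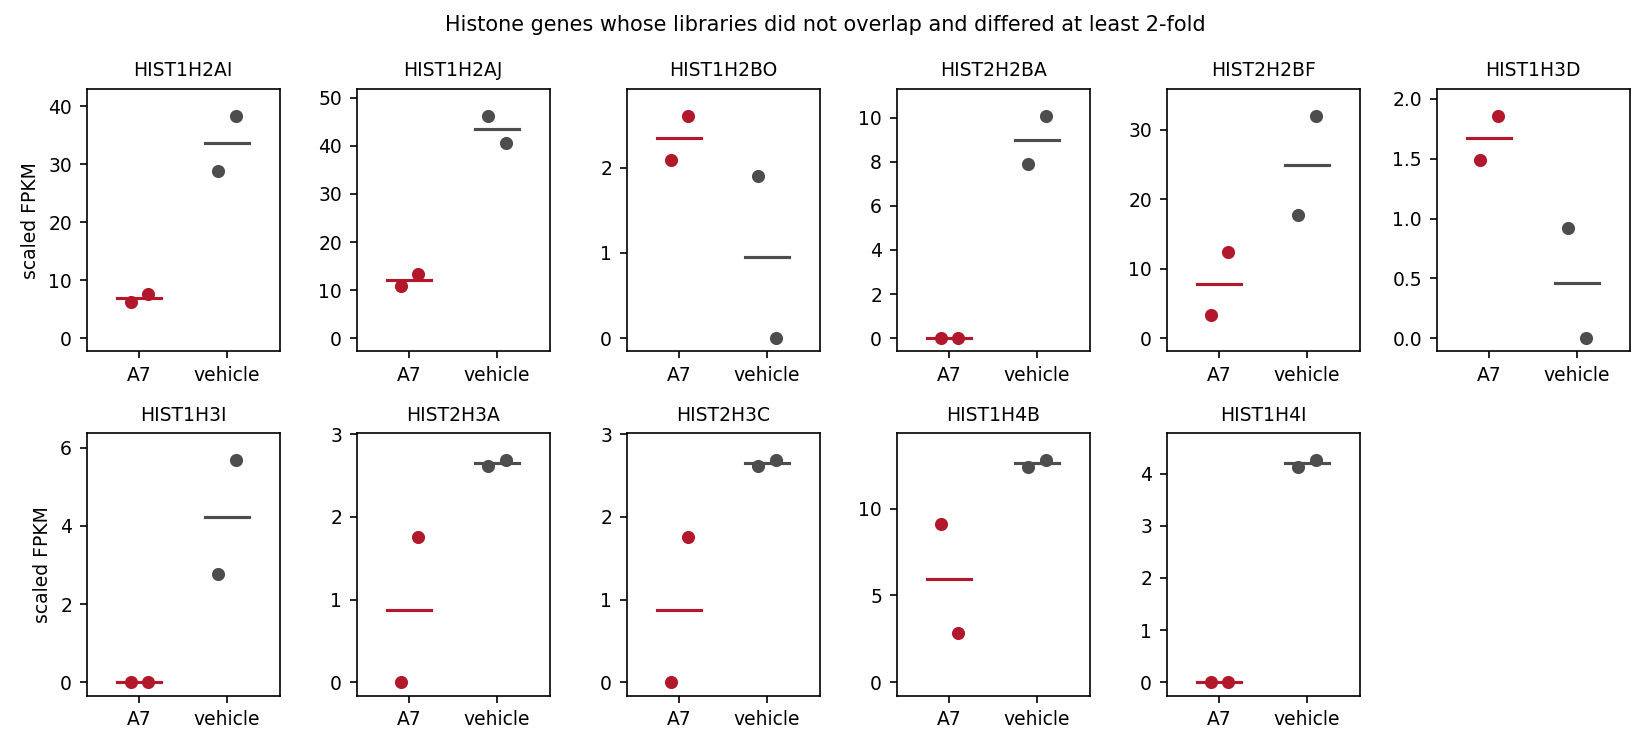
Scaled FPKM of the 11 members whose A7 libraries (red, left) did not overlap the vehicle libraries (grey, right) and whose means differed at least 2-fold. Points are libraries and bars are means of 2, and each panel has its own scale. HIST1H2AI and HIST1H2AJ are the members of highest level, with 6.27 to 13.3 with A7 and 28.8 to 46.3 with vehicle.

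The abundant members had small differences beside the spread between libraries. HIST1H4C, one of many genes that encode the same H4 protein, had 9969 and 8347 scaled FPKM with A7, against 10404 and 9374 with vehicle (mean 9158 ± 1150 with A7 and 9889 ± 728 with vehicle, SD, n = 2 each). Its groups overlap, and its log2 difference of -0.11 (SE 0.14, limma adjusted p 0.892) turned to 0.11 with TPM. It ranked 17th of all symbols by mean level, and it made up 76.2% to 78.4% of the members' summed FPKM in the 4 libraries. Its annotated transcript ends in a stretch rich in A, shown because the kit's usual primer binds to A runs; capitals mark it, with 18 A in 20 bases.
HIST1H4C (chr6:26104285-26104310, plus strand): aacttcAAAAAACAAAAACAAAAAAA
The median over members of the richest 20-base window was 11 A, and 1 member had a richer one than HIST1H4C. Whether that stretch bears on its level was not tested.

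HIST2H4A and HIST2H4B, identical copies of an H4 gene with the same values in every library, had 645 and 610 scaled FPKM with A7 and 717 and 598 with vehicle. HIST2H2AA3 and HIST2H2AA4, H2A genes that are likewise identical copies, had 181 and 145 with A7 and 176 and 112 with vehicle. HIST2H2AC, an H2A gene, had 49.4 and 30.2 with A7 and 60.8 and 19.6 with vehicle. Values of each of these genes overlap between the groups.

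Of the H2B genes, HIST1H2BK had 113 and 117 with A7, against 123 and 115 with vehicle. HIST1H2BC had 53.2 and 72.6 with A7 and 50.0 and 65.2 with vehicle. HIST1H2BH had 24.7 and 18.8 with A7 and 32.6 and 28.3 with vehicle, and its groups did not overlap (log2 difference -0.48, SE 0.18, limma adjusted p 0.806).

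Of the linker histone genes, HIST1H1C had 108 and 124 with A7, against 125 and 111 with vehicle. HIST1H1D had 24.2 and 24.9 with A7 and 21.3 and 11.2 with vehicle, and HIST1H1E had 8.77 and 7.61 with A7 and 4.62 and 7.03 with vehicle. Both were higher in each A7 library without passing the test (limma adjusted p 0.806 for each).

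Of the H3 genes, HIST1H3B had 21.4 and 19.5 with A7, against 23.4 and 53.3 with vehicle, where vehicle replicate 2 is far above the rest. HIST1H3H had 40.8 and 25.2 with A7 and 29.3 and 16.5 with vehicle. HIST1H3G had 27.6 and 10.8 with A7 and 15.9 and 21.8 with vehicle. HIST1H3H and HIST1H3G overlap between the groups.

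Some members chosen after their values were seen show how much 1 library can decide. HIST1H2BF was listed at 0 and 0 with A7 and at 0 and 7.35 with vehicle, and HIST1H2BL had 1.18 and 0 with A7 and 0 and 11.0 with vehicle. In both genes vehicle replicate 2 alone carries the difference. HIST1H2BJ, in contrast, had 29.4 and 34.2 with A7 and 23.8 and 16.2 with vehicle (limma adjusted p 0.806).

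Members annotated with at least 100 bases beyond the stem-loop had a higher median level in these libraries than the others, which was not tested. The 21 such members had a median level of 13.2 scaled FPKM, against 3.04 in the other 52, and their median log2 difference was -0.12 against -0.05 in the others. The highest member, HIST1H4C, is among the 52. Only the 30 members with an annotated stem-loop could be among the 21. The 52 also hold every member without one and all 8 members listed at 0 in every library. The contrast therefore also depends on how far the annotation of a gene reaches.

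Genes that make, carry or accompany histones were read from 4 lists, with up to 4 named in each. Of 14 tested genes for histone transcription and mRNA 3' end formation, 6 were higher and 8 lower with A7 by their log2 differences (median -0.134, which is 0.087 with TPM). CSTF2, a cleavage factor, had 2.56 and 2.75 scaled FPKM with A7 and 5.2 and 3.84 with vehicle (limma adjusted p 0.806), and SLBP, which binds the stem-loop, had 6.94 and 5.94 with A7 and 11.1 and 7.33 with vehicle (limma adjusted p 0.806). The cap-binding protein gene NCBP1 had 4.07 and 4.05 with A7 and 4.85 and 5.83 with vehicle. LSM10, part of the U7 particle that cuts histone mRNAs, had 15.9 and 14.2 with A7 and 19.3 and 17.1 with vehicle. All 4 had lower values in both A7 libraries. They were picked by smallest p, which favours groups that do not overlap. The rest of that list held genes that were lower, higher or overlapping. Of 17 histone chaperones and import factors, 6 were higher and 11 lower (median -0.052, and 0.14 with TPM). ATRX, a chromatin remodeller that works with the H3.3 chaperone DAXX, had 6.19 and 5.9 with A7 and 4.79 and 4.28 with vehicle, whereas DAXX averaged 49.8 ± 4.51 with A7 and 62.4 ± 3.43 with vehicle (SD, n = 2 each). CHAF1B, a subunit of the chaperone CAF-1, had 1.77 and 2.12 with A7 and 3.02 and 2.45 with vehicle. The importin gene IPO4 had 2.32 and 1.82 with A7 and 2.83 and 2.31 with vehicle. ATRX was higher in both A7 libraries, DAXX and CHAF1B lower, and IPO4 overlapped. Of 11 replacement variants, which are made outside S phase as well, 6 were higher and 5 lower (median 0.013). The variant H2AFY, macroH2A, had 177 and 191 with A7 and 234 and 240 with vehicle (limma adjusted p 0.806). CENPA, the centromere variant of H3, had 5.11 and 4.0 with A7 and 3.7 and 2.62 with vehicle. H2AFZ, which encodes H2A.Z, had 3218 and 3252 with A7 and 3359 and 4445 with vehicle, and H2AFJ had 7.38 and 4.36 with A7 and 8.56 and 6.88 with vehicle. CENPA was thus higher in both A7 libraries, H2AFY and H2AFZ lower, and H2AFJ overlapped. Of 17 S phase genes, 6 were higher and 11 lower (median -0.176, and -0.007 with TPM). With TPM the median of all tested genes was 0.174, above each TPM median given for these lists. The helicase subunit MCM7 had 349 and 413 with A7 and 441 and 506 with vehicle (limma adjusted p 0.806), and its partner MCM5 had 3.53 and 3.18 with A7 and 4.5 and 4.32 with vehicle. The kinase gene CDK2 had 9.38 and 5.94 with A7 and 11.6 and 9.79 with vehicle. PCNA, the sliding clamp of DNA polymerase, had 86.2 and 94.0 with A7 and 98.1 and 119 with vehicle. All 4 were lower in both A7 libraries, but they too were picked by smallest p. The rest of the S phase list held genes that were lower, higher or overlapping. Over all tested genes, 18.6% were lower and 18.3% higher with no overlap between the groups. The limma adjusted p was 0.806 for each of the 16 named genes except IPO4 (0.87) and H2AFJ (0.82). No gene of these lists passed the adjusted threshold in limma, and 2 of the 59 tested, CSTF2 and H2AFY, had an unadjusted p under 0.05, against 5.76% of all tested genes.

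**Figure D5:**
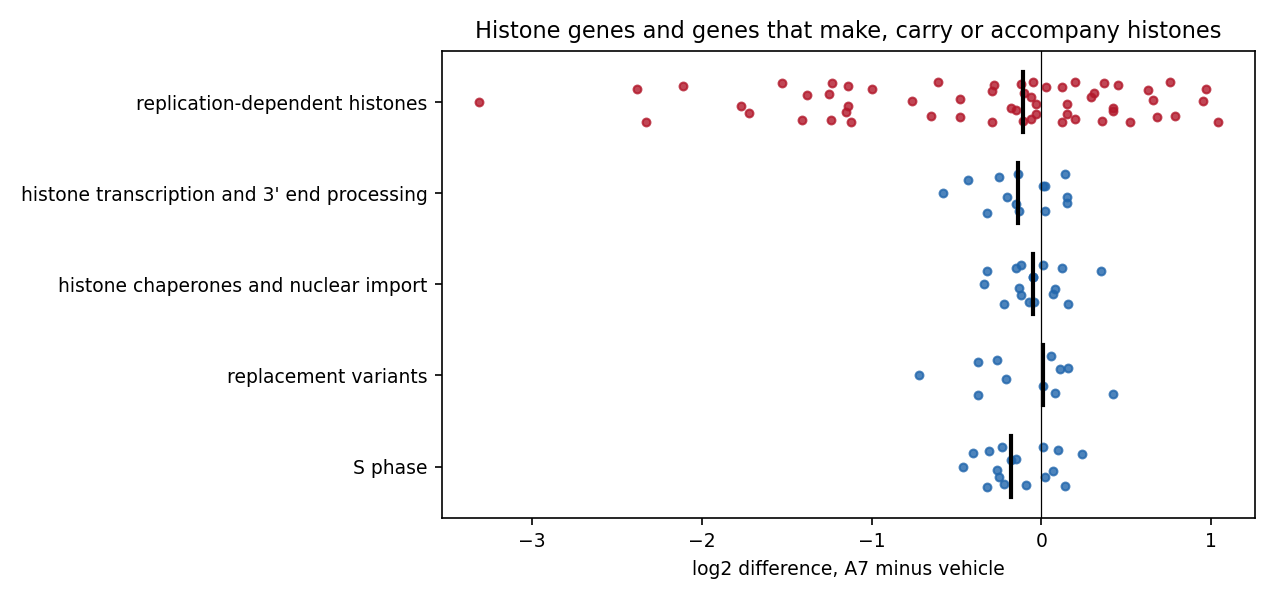
Log2 difference, A7 minus vehicle (horizontal axis), of each tested replication-dependent histone gene (top row, red) and of the genes in 4 related lists (blue); black bars are medians. The histone genes spread from -3.31 to 1.04, and the medians of the lists lie between -0.176 and 0.013.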

How the data were processed

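For every library the authors deposited a table of gene symbols and FPKM values, per the file headers. The submitters' processing notes list CASAVA 1.8.2, TopHat, Cufflinks 2.2.1 and genome build GRCh37, with no role or order. How reads that map to several copies were divided is not given in the sources used here. Since FPKM is a normalized value, tools for counts were not used. Of 23619 lines per table, 14 had a number as symbol and were left out (0.00539% of the summed FPKM at most). Summed FPKM were 1189056 and 1192830 with A7 and 1324082 and 1473540 with vehicle.

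Values were scaled with 1 factor per library, the median over genes of the ratio to their geometric mean. The 8952 genes with a mean FPKM of at least 1 were tested with limma 3.58.1 (R 4.3.3, mean-variance trend) on log2(scaled FPKM + 1), A7 minus vehicle, two-sided, with Benjamini-Hochberg adjustment over all of them and a threshold of 0.05. The fit had 2 residual and 3.89 prior degrees of freedom, and this scale understates changes of low genes. The fit was tested on simulated data with changes planted only in genes above a low level, so that test does not cover the lowest members. Sums, depth steps and copies (edlib 1.3.9.post1, identity of at least 95%) were computed with Python 3.11.15. GENCODE 29 (GRCh38) and RefSeq (GRCh38.p14) gave annotation and sequences only, since the files use another build. Intervals cover counting error only.

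The members and lists were chosen with earlier results of these data known. Named are the 3 members of each type with the highest mean, every member called, those at least 2-fold apart with no overlap between groups, and up to 4 genes of each list with the smallest p. Other names were chosen after their values were seen. Alternatives covered scaling, pseudocount, filter, trend, copies, replicate block and leaving out each library.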

Additional observations from a re-analysis of the deposited data

How the results depend on the processing

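No histone member was called higher under any setting run. The number called lower was 1, and it was 0 with a pseudocount of 0.1, with no filter, with the replicate block, with copies joined by whole transcripts (added after seeing the data) and with each library left out (0 to 0), and 2 (HIST1H2AI and HIST1H2AJ, adjusted p 0.0152 each) with a mean FPKM of at least 5, where HIST2H2BA was too low to be tested. HIST2H2BA had a limma adjusted p of 0.0365, and from 0.0509 to 0.703 under these alternatives other than the joined copies, where it was 0.788. Under the replicate block it was 0.145. The replicate numbers only share a number between groups (correlation of deviations 0.0906 over 8952 genes), so the block is no evidence of pairing. Over all genes 1 was called higher and 1 lower. The higher count was 0 with no filter, no variance trend, joined copies and the replicate block, and 0 to 10 with a library left out. The lower count was 2 with TPM and with quantile normalization, 0 with a pseudocount of 0.1, no filter, joined copies and the replicate block, 3 with a mean FPKM of at least 5, and 0 to 7 with a library left out.

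Of tested members 23 were higher and 35 lower, but 33 and 25 with TPM and 30 and 28 with quantile normalization. With a mean FPKM of at least 5 it was 15 and 19, and of at least 10 (added after seeing the data) 14 and 17. The members' median of -0.105 was 0.113 with TPM, 0.002 with quantile normalization, -0.037 with a mean FPKM of at least 5 and -0.347 to -0.085 with a library left out, lowest without vehicle replicate 1. With TPM the median of all tested genes was 0.174. The summed log2 ratio with TPM was 0.285 for H1, 0.113 for H2B, 0.115 for H4 and 0.113 for all members. With the scaling used in the report it was 0.387 for H1 without HIST1H1C, and -0.333 for H2A with identical lines counted once (added after seeing the data) or without its most abundant line, against -0.177 with all lines. The signs of HIST1H1C (0.20 with TPM, 0.12 with quantile normalization), HIST1H2BK (0.17, 0.11), HIST1H4C (0.11, 0.06) and HIST2H4A and HIST2H4B (0.16, 0.11) turned with these scalings, and that of HIST1H3G with TPM (0.12). With a library left out the range spans 0 for HIST1H1C (-0.12 to 0.07), HIST1H2BC (-0.10 to 0.34), HIST1H3G (-0.73 to 0.55), HIST1H4C (-0.24 to 0.02), HIST2H4A and HIST2H4B (-0.19 to 0.07), HIST2H2AA3 and HIST2H2AA4 (-0.11 to 0.52) and HIST2H2AC (-0.63 to 0.94). The cause was not tested. Low depth limits all of this, since 22 of 48 members rest on at most 10 fragments.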
